A study of Sus scrofa with 80 samples.

Results

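The hypothalamus of young pigs was set against the adenohypophysis, the thyroid gland, the testis, the ovary and backfat of the same animals. Its members were all 16 arrays that the labels name as hypothalamus tissue, of 80 arrays in the series. The other arrays were 16 from adenohypophysis, 16 from thyroid gland, 9 from testis, 7 from ovary and 16 from backfat. Messenger RNA of each sample was measured on 1 Affymetrix Porcine GeneChip, and each pig gave 1 array per tissue, so that arrays were paired by animal. The 16 pigs comprised 4 Large White (LW, mean age 87 days), 4 Duroc (DU, 83 days), 4 Youli (YL, 80 days) and 4 Iberian (IB, 89 days), with 9 males and 7 females in all. Large White, Duroc and Iberian pigs had 2 males and 2 females each, and Youli pigs 3 males and 1 female. All pigs were fed the same diets and fasted before euthanasia, and no group received a treatment. Mamillary body and grey tubercle belonged to the hypothalamus samples, the optic chiasm did not, and adenohypophysis samples were taken without the posterior lobe. Each sample was therefore a mixture of cells, and a pig is named below by breed, sex and number (LWF06 is Large White female 06).

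The hypothalamus is the part of the forebrain that links the nervous system to the endocrine glands. Its neurons release peptides, some of which reach the adenohypophysis through portal vessels and set the release of its hormones, while oxytocin and vasopressin travel along axons to the neurohypophysis. Other peptides, among them melanin-concentrating hormone and the orexins of the lateral hypothalamus and the peptides of the arcuate nucleus, take part in feeding and wakefulness. The neurons lie among oligodendrocytes, which wrap axons in myelin, astrocytes, which take up transmitter, and microglia, the resident macrophages of the brain.

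The deposited log2 values covered 23999 probesets after 124 controls were left out. A single symbol was given to 10069 of these, which stand for 6765 genes, each taken at its probeset of highest mean over all arrays. The median over probesets lay between 4.77 and 4.94 in the hypothalamus arrays, against 4.67 to 5.04 in the others. Their lower quartile was between 2.55 and 2.73 in all arrays, so that values of about 2 to 3 lay at the floor of the measurement. In all, 5076 genes had a mean of at least 4 in the hypothalamus. Precision is limited by how many arrays a group holds.

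Some hypothalamus arrays stood apart before any comparison was made. LWF06 and LWM02 were low in several neuropeptides, YLM18 was high in TTR, which marks the choroid plexus, and YLM19 was high in the hormones GH1, PRL and CGA of the adenohypophysis. Some of the results that rest on these arrays are also given with all 4 left out, an alternative chosen after seeing the data. LWF06 and LWM02 were picked for low neuropeptides, so larger neuropeptide differences without them follow in part from that choice. Smaller signals of the hormone genes were seen in DUF13 and IBM24, and IBM23 was high in immune genes. These arrays stayed in that alternative. IBM23 had 29 genes at least 2 above all other hypothalamus arrays, whereas LWM02 and YLM18 had 0 and 1. Over all probesets each hypothalamus array had a median correlation with the other hypothalamus arrays of between 0.971 and 0.987.

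The 4 marker genes of the hypothalamus, which were chosen with earlier results of these data known, are given as a description of the arrays. MOBP, a protein of central myelin, was at log2 13.27, 14.90 and 15.25 (lowest, median, highest) in the hypothalamus, and no array of another tissue was above 7.32. FEZ1, needed for axonal transport, ranged from 10.92 through a median of 11.27 to 12.07, while the highest array of another tissue was at 5.05. SYT1, the calcium sensor of synaptic vesicles, was at 10.47, 10.84 and 11.83, and NEFL, the light neurofilament, at 11.81, 12.18 and 12.87. All hypothalamus arrays were above all others for these genes, but for SYT1 and NEFL the adenohypophysis came next, with means of 7.32 and 9.06. In bulk tissue, a difference in the number of cells of a type and a difference in RNA per cell cannot be told apart.

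A gene was called higher or lower when the log2 difference was at least 1 and the adjusted p was under 0.05 in limma with Benjamini-Hochberg adjustment over all probesets, with the animal as a block. Against the adenohypophysis 840 genes (12.4%) were higher in the hypothalamus and 885 (13.1%) lower. Against the thyroid gland 966 (14.3%) were higher and 1284 (19%) lower. The counts were 960 (14.2%) and 1388 (20.5%) against the testis, 985 (14.6%) and 1392 (20.6%) against the ovary, and 1026 (15.2%) and 1301 (19.2%) against backfat. A gene that met the rule against all 5 other groups in 1 direction was called set apart, and this held for 346 genes set apart high (5.11%) and 240 set apart low (3.55%). For 224 genes (3.31%) every hypothalamus array lay above every other array, and for 184 (2.72%) every one lay below, with no rule on the size of the gap. Of the genes set apart, 191 of the 346 and 116 of the 240 had no such overlap. List counts below are to be read beside the shares over all genes, 5.11% high and 3.55% low, or 3.31% and 2.72% without overlap. The smallest of the 5 differences was at least 3 in 70 genes. The 20 genes with the largest gaps are plotted by group.

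**Figure D1:**
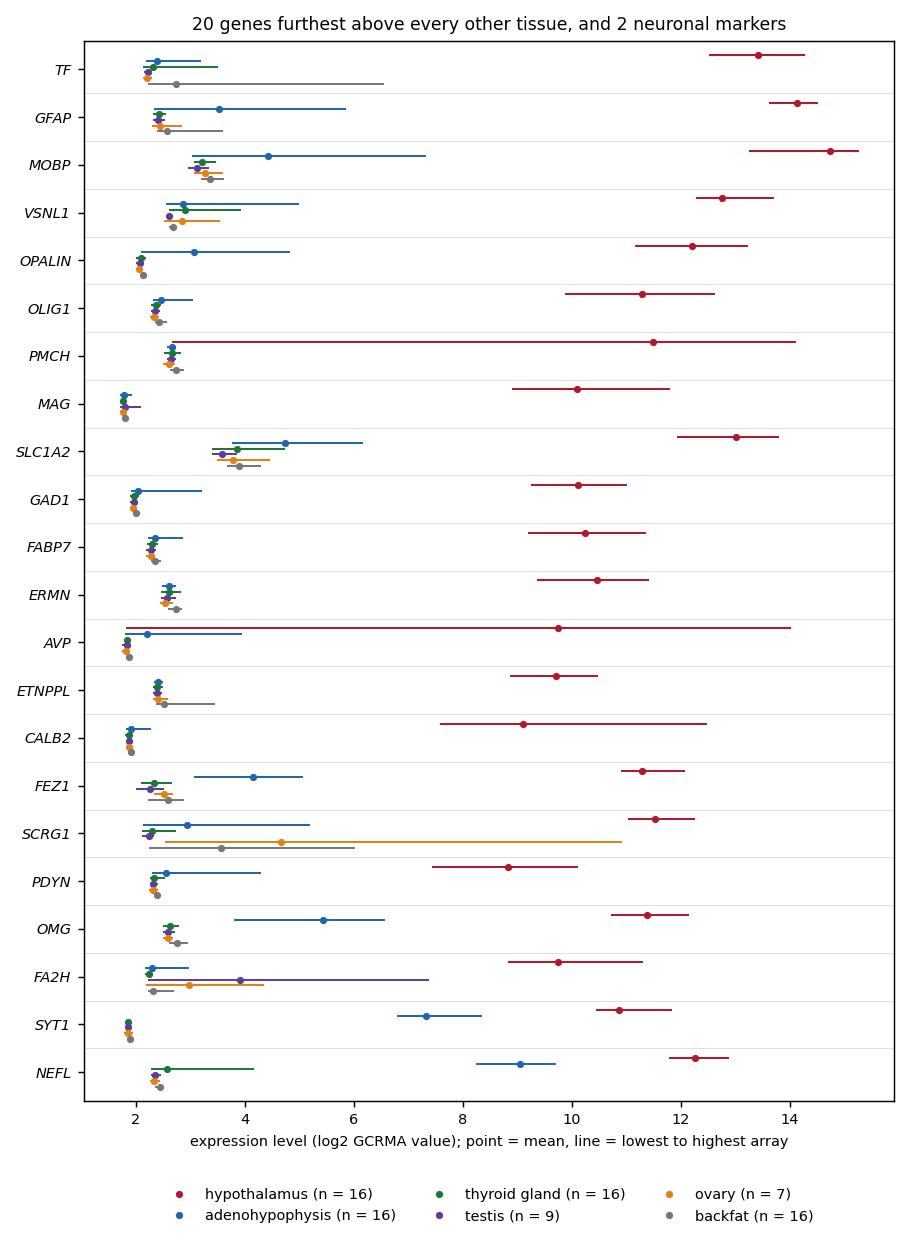
Mean log2 value (point) and lowest to highest array (line) of the 20 genes furthest above the next tissue, with SYT1 and NEFL, in hypothalamus (n = 16), adenohypophysis (16), thyroid gland (16), testis (9), ovary (7) and backfat (16). PMCH and AVP had hypothalamus arrays at the floor, whereas in the other 18 of the 20 genes all hypothalamus arrays lay above all others.

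Genes of oligodendrocytes, the myelin-forming cells, were among those furthest above the other tissues. Of 24 measured members of the oligodendrocyte list 13 were set apart high and 0 low, and 10 did not overlap. The 13 include MOBP, which was chosen as a marker and adds no support. The mean of the list over its genes was 8.65, 9.03 and 9.94 (lowest, median, highest) in the hypothalamus arrays, and no array of another tissue was above 5.29. Its median difference was 3.97 against the adenohypophysis and 3.23 against backfat, beside medians of -0.02 and -0.09 over all genes. TF, the iron carrier transferrin, was at 12.54, 13.47 and 14.26 in the hypothalamus and at most at 6.53 in any other array. Its smallest difference, against backfat, was 10.67 ± 0.20 (SE). OPALIN, a membrane protein of myelinating cells, was at 11.17, 12.26 and 13.21, and OLIG1, a transcription factor of the lineage, at 9.89, 11.45 and 12.60. The smallest differences of both were against the adenohypophysis, with 9.14 ± 0.17 and 8.82 ± 0.13. MAG, an adhesion protein of the innermost myelin layer, was at 8.92, 10.03 and 11.78, with a smallest difference of 8.29 ± 0.18. ERMN, ermin, was 7.72 ± 0.10 above its next group. FA2H, which makes the hydroxylated lipids of myelin, was 5.86 ± 0.35 above its next group, the testis. CNP, a myelin enzyme, varied more among pigs, at 3.46, 4.84 and 9.70, and was still set apart. SOX10, another factor of the lineage, averaged 2.67 ± 0.04 (SD, n = 16) at this probeset, against 2.67 ± 0.04 in the adenohypophysis, which is floor level in both.

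Of 22 measured genes of astrocytes 9 were likewise set apart high and 0 low. Against the adenohypophysis 17 were higher and 1 lower, against the testis 12 and 2, and against backfat 12 and 3. Not set apart were GJA1, ALDH1L1, GLUL, AGT, SLC4A4, CLU, SOX9, APOE, PLTP, CST3, ADD3, DIO2 and PLA2G7. The mean over the list was 9.85, 10.28 and 10.46 in the hypothalamus, and no other array exceeded 7.91. GFAP, the filament protein of astrocytes, was at 13.64, 14.14 and 14.50 in the hypothalamus and never above 5.85 elsewhere, with a smallest difference of 10.61 ± 0.20 against the adenohypophysis. SLC1A2, which clears glutamate from the synapse, was at 11.95, 13.06 and 13.78. It was 8.27 ± 0.16 above the adenohypophysis, and its arrays did not overlap with any other. FABP7, a fatty acid binding protein of glia, was 7.87 ± 0.08 above its next group and ETNPPL, a phospho-lyase, 7.2 ± 0.08. S100B, a calcium-binding protein of astrocytes and also of Schwann cells, was at 12.13, 13.19 and 13.58, against 9.89 on average in the adenohypophysis (difference 3.23 ± 0.21). ALDOC, the aldolase of brain, and MT3, a metallothionein of brain, had smaller gaps, of 1.63 ± 0.23 over backfat and 1.55 ± 0.26 over the adenohypophysis.

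Of 13 measured genes of microglia 4 were set apart high, namely AIF1, P2RY12, ITGAM and IRF8. P2RY12, the purine receptor of resting microglia, was at 8.47, 9.98 and 10.64, and no other array was above 6.56. Its smallest difference was 4.26 ± 0.19, against backfat. IRF8, which is also made by B cells, was 1.03 ± 0.26 above the ovary, and the groups overlapped. The difference of IRF8 fell under 1 when any of DUF13, YLF21, IBM23 or IBF25 was left out (0.76 at the lowest), and that of ITGAM was 0.71 with the mean of its probesets. Leaving out 1 pig gave 3 to 5 microglia genes set apart. C1QA, which macrophages make too, was at 8.31 in the hypothalamus and 8.68 in backfat and was not set apart. The list means over arrays ran from 6.75 to 8.50 in the hypothalamus and from 6.13 to 7.71 in backfat, so that these 2 tissues overlapped.

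**Figure D2:**
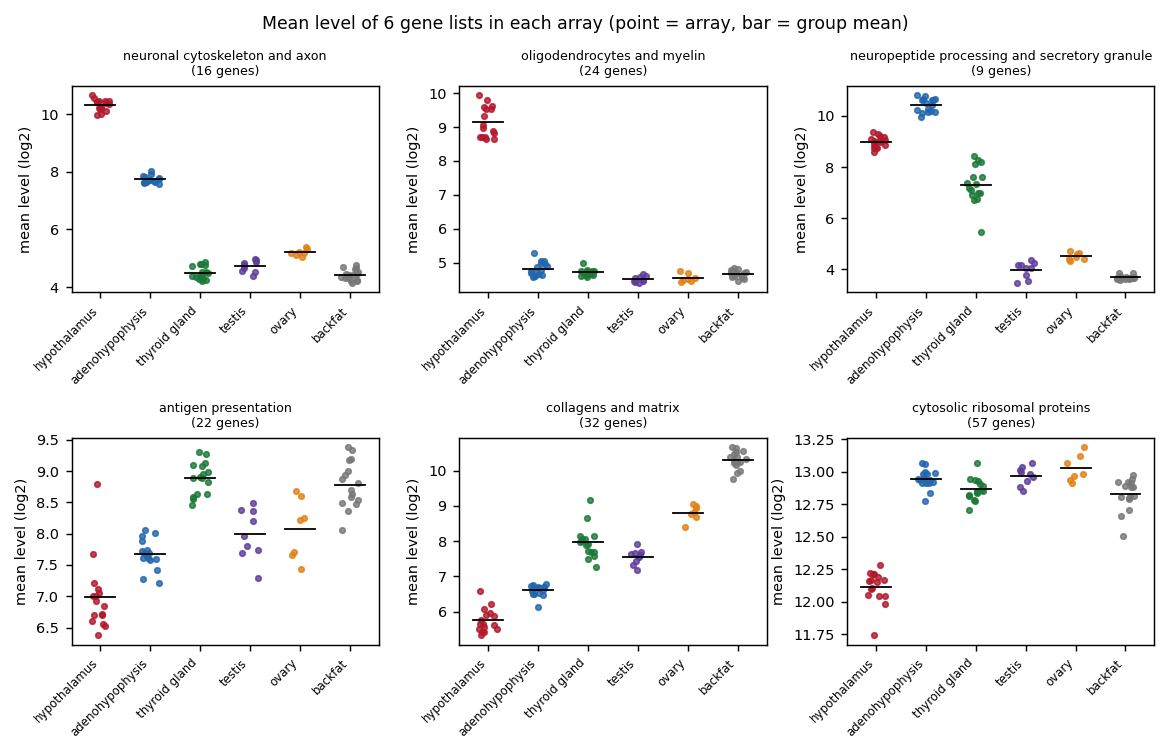
Mean log2 value over the measured genes of 6 lists in each array (points, with the group mean as a bar), by tissue, with hypothalamus at the left. The neuronal cytoskeleton and oligodendrocyte lists of the hypothalamus lie above all other arrays and the ribosomal protein list below all others, the granule list lies between thyroid gland and adenohypophysis, and 1 hypothalamus array of the antigen presentation list stands out at 8.79.

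Genes of the neuronal cytoskeleton and axon followed, with 12 of 16 measured members set apart high, 11 of these without overlap. The 12 include NEFL and FEZ1, which were chosen as markers and add no support. The mean over the 16 genes was 9.98, 10.37 and 10.67 in the hypothalamus and 7.59, 7.71 and 8.04 in the adenohypophysis. The median difference of the list was 2.15 against the adenohypophysis and 6.76 against the thyroid gland, beside -0.02 and -0.03 over all genes. STMN2, which regulates microtubules in growing axons, was at 12.54, 13.40 and 13.84, and no other array was above 10.18. Its smallest difference was 5.07 ± 0.25. GAP43, a protein of growth cones, was 4.28 ± 0.19 above the adenohypophysis and GPM6B, a membrane proteolipid of neurons and glia, 2.93 ± 0.16 above backfat. MAP2, which binds microtubules in dendrites, was also high in the adenohypophysis, at 11.46 on average, against 12.22, 12.73 and 12.98 in the hypothalamus (difference 1.24 ± 0.16). UCHL1, a deubiquitinating enzyme of neurons, differed from the adenohypophysis by 0.67 ± 0.35 (adjusted p = 0.10) and was not set apart.

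Of 11 measured genes of synaptic vesicles 7 were set apart high and none of the 7 overlapped. The 7 include SYT1, which was chosen as a marker and adds no support. ATP6V1G2, a subunit of the proton pump, was 4.48 ± 0.14, RAB3A, a small GTPase of vesicle release, 2.67 ± 0.17 and VAMP2, which drives fusion, 2.01 ± 0.11 above the adenohypophysis. SNAP25, the partner of VAMP2 in fusion, was at 12.24, 12.59 and 13.19 in the hypothalamus and at 11.86, 12.15 and 12.37 in the adenohypophysis. These 2 groups overlapped, with a difference of 0.51 ± 0.23 (adjusted p = 0.053). In the other 4 groups the mean of SNAP25 was 5.78 or less. All 11 genes were higher than in the thyroid gland, the testis, the ovary and backfat, but 7 were higher than in the adenohypophysis.

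Of 14 genes of postsynaptic signalling 7 were set apart. VSNL1, a calcium sensor, was at 12.31, 12.64 and 13.69, and no other array was above 4.99, with a smallest difference of 9.85 ± 0.13. CALB2, the calcium buffer calretinin, was between 7.6 and 12.46 with a median of 9.08, the highest of these in LWF06. It was 7.19 ± 0.18 above its next group, and 6.97 without the 4 arrays. RGS4, which limits G protein signalling, and CAMK2B, a calmodulin kinase, were 2.30 ± 0.28 and 1.61 ± 0.23 above the adenohypophysis. Of 13 genes of transmitter synthesis and transport 5 were set apart high and 0 low. In 1 of the 13 all hypothalamus arrays lay below all others, beside 2.72% of all genes. Against the testis 8 were higher and 1 lower, and against the ovary also 8 and 1. GAD1 and GAD2, which make the inhibitory transmitter GABA, had medians of 10.05 and 9.20 in the hypothalamus, and no other array was above 3.19 and 4.80. Their smallest differences were 8.06 ± 0.07 and 5.64 ± 0.14. DDC, which makes dopamine and serotonin from their precursors, was at 4.17, 6.46 and 9.77, overlapped with the thyroid gland and was 1.63 ± 0.32 above it. The receptor subunits GABRA4 (GABA), GLRB (glycine) and CHRNB2 (acetylcholine) were set apart, 3 of 5 measured. Of 10 voltage-gated channel genes only CACNB4 was set apart, beside 5.11% of all genes. The group of perineuronal and brain matrix had 3 of 6 set apart, with OMG, the myelin glycoprotein of oligodendrocytes, 5.95 ± 0.14 above the adenohypophysis.

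Several neuropeptide genes ranged from the floor to high levels among the pigs. Of 45 symbols of the neuropeptide list 24 were measured, 11 were set apart high, 8 of these by at least 3, and 3 did not overlap. Without the 4 arrays, which include 2 picked for low neuropeptides, 12 were set apart. The mean over the 24 genes was 2.92, 5.33 and 6.58 in the hypothalamus, and the highest array elsewhere was 3.12, in the adenohypophysis. Only LWF06, the lowest, lay under that value. The 13 genes that were not set apart were GNRH1, POMC, AGRP, TAC3, PNOC, GAL, CCK, NMB, NPW, GHRL, PTHLH, NPPC and INS. Of these NPW, GHRL and INS had no hypothalamus array above 2.15.

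PMCH, the precursor of melanin-concentrating hormone, was at 2.68, 12.34 and 14.09 in the hypothalamus, and no other array was above 2.88. The lowest array, LWF06, was at the floor and LWM02 was at 6.13, and the other 14 lay between 11.07 and 14.09. The smallest difference was 8.75 ± 0.46 (largest adjusted p = 1.5e-19), and 9.81 without the 4 arrays. The SD was 2.95 in the hypothalamus and about 0.04 to 0.07 elsewhere. The fit shares 1 residual variance among groups, so this SE and p understate the spread among hypothalamus arrays. HCRT, the precursor of the orexins, was at 1.70, 8.17 and 10.01, and the same 2 arrays were the lowest, at 1.70 and 1.81. It was 5.48 ± 0.38 above its next group, and 6.26 without the 4 arrays. The 4 include these 2 lowest arrays, picked for low neuropeptides, so the larger differences of PMCH and HCRT are no independent check.

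AVP, the vasopressin precursor, was at 1.84, 10.50 and 14.01 in the hypothalamus and never above 3.94 elsewhere. LWF06 and LWM04 were at the floor. Its smallest difference was 7.53 ± 0.65 (largest adjusted p = 4.1e-12). Here too the SE and p understate the spread in the hypothalamus, where the SD was 4.06, against 0.02 to 0.60 elsewhere. OXT, the oxytocin precursor, fell into a high and a low set of arrays, with 8 pigs between 10.46 and 12.41 and 8 between 1.54 and 4.02. The 8 pigs high in OXT had AVP between 11.31 and 14.01, and the 8 others had AVP between 1.84 and 9.70. All 4 Large White pigs were in the low set, and the 8 high pigs were Duroc, Youli and Iberian. By the test of breed given below, 0 of the 24 neuropeptide genes were called. The smallest difference of OXT was 5.46 ± 0.96.

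Among the peptides that act on the adenohypophysis, TRH, which drives thyrotropin, was at 2.47, 8.04 and 10.36, and the highest other array was a testis, at 5.19. LWF06, LWM02 and YLM18 were the 3 lowest, at 2.47, 3.07 and 3.71. TRH was 3.75 ± 0.50 above the testis, and 4.68 without the 4 arrays. SST, somatostatin, which restrains growth hormone, was at 4.69, 9.41 and 10.24, against a mean of 6.63 in the thyroid gland, with a difference of 2.42 ± 0.33 and overlap. ADCYAP1, the precursor of PACAP, was at 4.39, 6.34 and 6.94, and no other array was above 2.54, with a difference of 3.72 ± 0.11. GNRH1, which drives the gonadotropins, had a median of 2.29 and 5 arrays between 3.28 and 5.20. It was 0.61 ± 0.16 above its next group and was not called. 

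Of the peptides of the arcuate nucleus and of feeding, CARTPT was at 1.94, 7.65 and 9.13 in the hypothalamus, and its mean was 7.29 ± 1.72 (SD, n = 16), against 6.21 in the adenohypophysis. The difference was 1.08 ± 0.34 (largest adjusted p = 0.0051) and came to 1.79 without the 4 arrays, but it fell under 1 when any of DUF13, IBF25, IBM23 or IBM24 was left out. NPY was at 2.28, 3.07 and 7.47 and AGRP at 1.69, 1.72 and 5.68. The 2 highest arrays of NPY and AGRP were those of IBM24 and LWM02, at 7.47 and 6.86 for NPY and at 5.68 and 4.58 for AGRP. POMC had a median of 2.87, and its highest hypothalamus array, of DUF13, was at 10.42. In that array PRL was at 7.35 and GH1 at 6.17. PDYN, the precursor of dynorphin, varied less, at 7.46, 8.78 and 10.09, with a difference of 6.26 ± 0.13 and no overlap. IAPP, amylin, was at 3.88, 8.03 and 9.65, and no other array was above 2.85. CCK, cholecystokinin, averaged 5.94 ± 1.21 (SD, n = 16), against 8.42 in the testis, a difference of -2.47 ± 0.30, so it was not set apart.

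**Figure D3:**
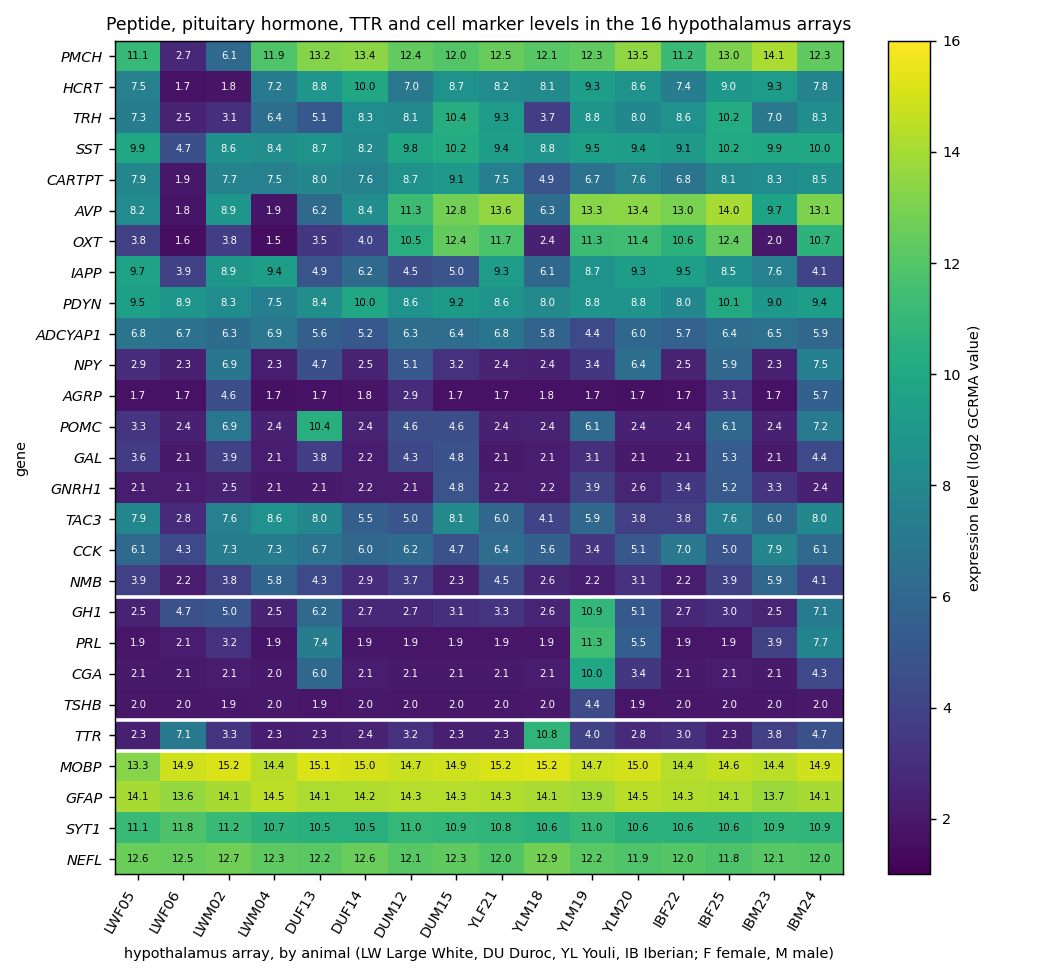
Log2 value (colour and number) of 27 genes (rows) in the 16 hypothalamus arrays (columns, by pig). PMCH is at 2.68 in LWF06 and 6.13 in LWM02, OXT is above 10 in 8 pigs, and GH1 and PRL are at 10.93 and 11.34 in YLM19.

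The arrays that stood apart did so in different genes. LWF06 had 6 genes at least 2 below all other hypothalamus arrays and 11 genes at least 2 above them. Below were SST, PMCH and CARTPT, and above were LHX9, a transcription factor, at 6.63 against at most 4.28 in the other 15, and TNNT1, a troponin, at 8.86 against at most 6.81. MOBP was at 14.89 in LWF06, and SCG2, a granule protein of neurons, at 9.94 against 11.45 or more. LWM02 was highest in DDC, at 9.77, and in DRD2, the dopamine receptor, at 5.02 against at most 3.64. In YLM19 GH1 was at 10.93, PRL at 11.34, CGA at 10.01 and TSHB at 4.44. The mean over 11 measured adenohypophysis markers was 5.03 in YLM19, with a range of 2.03 to 5.03 and a median of 2.28 in the hypothalamus and a range of 10.90 to 12.02 in the adenohypophysis. TG, the thyroglobulin gene, was at 5.47 in DUM12 and at most at 2.27 in the other hypothalamus arrays. IBM23 had 29 genes at least 2 above all others, among them CXCL9, a chemokine, at 10.68 against at most 6.25, CD2, a surface protein of T cells, at 8.04 against at most 4.69, and JCHAIN, of plasma cells, at 9.78 against at most 6.49. TTR was at 2.26, 2.91 and 10.83 and was set apart by 1.26 ± 0.36, but the difference was 0.39 without the 4 arrays, 0.95 without LWF06 and 0.78 without YLM18. The part of other tissue in these arrays was not tested.

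Secretory granule genes, shared by neurons and endocrine cells, were not set apart in the hypothalamus. Of 9 measured members 0 were set apart, 1 was higher and 6 were lower than in the adenohypophysis, with a median difference of -1.59. Against backfat 7 were higher and 0 lower, with a median of 6.40. CHGB, a granin, was at 9.33, 9.73 and 10.58 in the hypothalamus and at 14.45, 14.73 and 14.97 in the adenohypophysis, without overlap (difference -4.93 ± 0.29). SCG2, CHGA, SCG5, SCG3 and the prohormone convertase PCSK1 were lower by 1.11 to 2.60. PCSK2, the other convertase, was higher by 1.80 ± 0.33 than in the adenohypophysis, but lower than in the thyroid gland by 1.13. The sorting protein PCSK1N and the amidating enzyme PAM differed from the adenohypophysis by -0.34 ± 0.19 and -0.10 ± 0.10 (adjusted p = 0.14 and 0.48).

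The comparison with the adenohypophysis held the largest negative differences for its own hormones. All 11 adenohypophysis markers were lower in the hypothalamus. LHB, the luteinizing hormone subunit, was at 1.31, 1.35 and 1.90 in the hypothalamus, against a mean of 13.57 in the adenohypophysis (difference -12.16 ± 0.31). CGA, GH1 and PRL were lower by 11.66, 11.64 and 11.51, where the hypothalamus values include YLM19. TSHB, POMC and FSHB were lower by 10.47, 9.70 and 9.69. The epithelial genes EPCAM, KRT8 and ESRP1 closed the 10, and KRT8 was at 2.15, 2.53 and 5.19 in the hypothalamus, against a mean of 11.10 in the adenohypophysis. Of 18 genes of epithelial junctions and keratins 15 were lower in the hypothalamus than in the adenohypophysis and 17 than in the thyroid gland, and 0 were set apart. Only 3 were lower than in the testis and 1 than in backfat. The largest positive differences were those of TF, GFAP, MOBP, VSNL1, OPALIN, OLIG1, PMCH, MAG and SLC1A2, and of SCRG1, a gene of glia, at 11.05, 11.48 and 12.25 in the hypothalamus and at 2.94 on average in the adenohypophysis. In 1 ovary SCRG1 was at 10.91.

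Of 29 measured receptors and related genes of the feeding and endocrine axes 3 were set apart high, beside 5.11% of all genes, and 0 low. Against the adenohypophysis 4 were higher and 8 lower, and against the ovary 4 and 5. MC4R, the melanocortin receptor of feeding, was at 2.71, 4.86 and 6.16 and 2.04 ± 0.14 above its next group, with LWF06 the lowest. OPRM1, the opioid receptor, was at 2.13, 5.30 and 7.94 and 2.64 ± 0.27 above, or 2.11 without the 4 arrays. BDNF, a neurotrophin, was 2.40 ± 0.15 above. LEPR, GHSR and HCRTR1 were at the floor in the hypothalamus, at 2.33, 2.02 and 2.51 on average. Of 8 measured hypothalamic transcription factors, ARNT2, the partner of SIM1, was set apart alone, at 9.65, 10.10 and 10.35 and 1.86 ± 0.25 above the testis. In this list 2 were higher and 3 lower than in the adenohypophysis, 1 and 3 than in the testis, and 1 and 4 than in the ovary. Of 3 measured genes of other brain regions 0 were set apart, and SLC6A4, the serotonin transporter, was at 2.43 ± 0.05 (SD, n = 16).

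**Figure D4:**
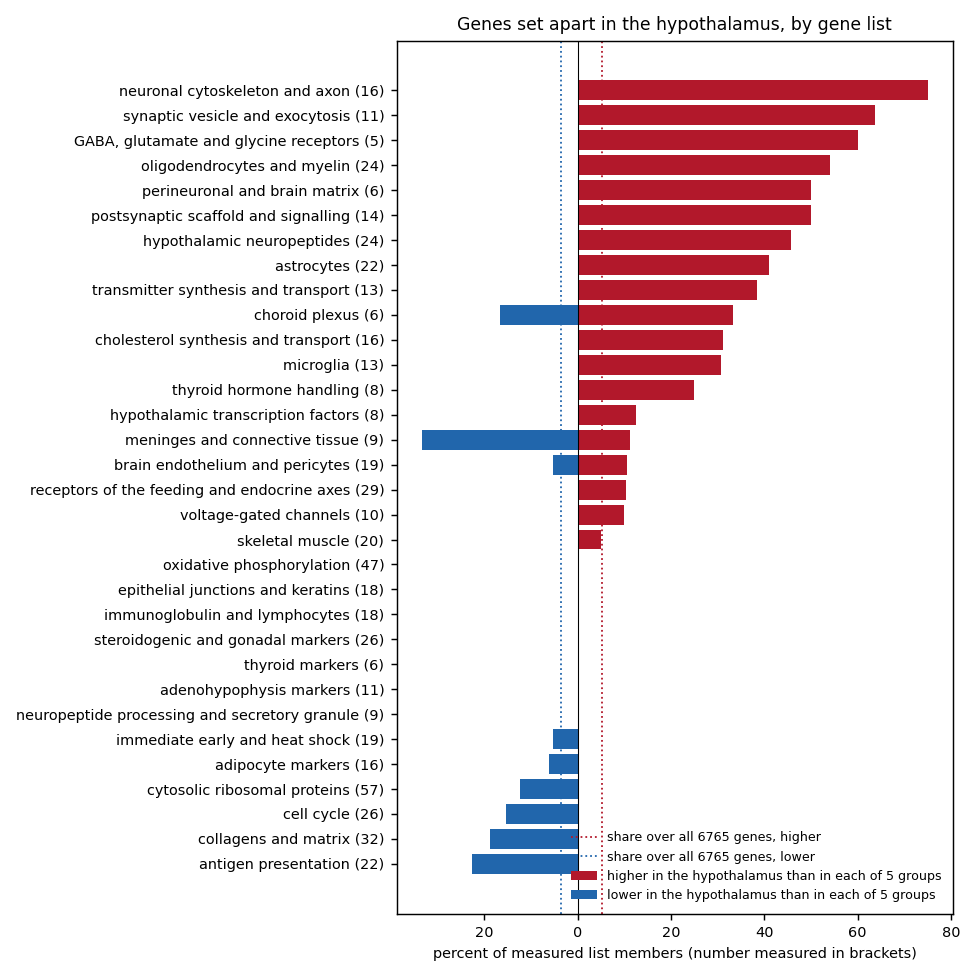
Percent of the measured members of each gene list with 5 or more measured that were set apart high (right) and low (left) in the hypothalamus, with dotted lines at 5.11 and 3.55 percent, the shares over all genes. The neuronal cytoskeleton (12 of 16), synaptic vesicles (7 of 11) and transmitter receptors (3 of 5, acetylcholine receptors included) reach furthest to the right, and 0 of their members were set apart low. The counts include the chosen markers NEFL, FEZ1, SYT1 and, for oligodendrocytes, MOBP.

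Genes of cholesterol synthesis and transport had 5 of 16 members set apart high and 0 low. HMGCS1, which makes the precursor of mevalonate, was at 12.30, 12.82 and 13.64, with no overlap and a smallest difference of 2.72 ± 0.21, against the testis. NPC1, which moves cholesterol out of lysosomes, was 1.32 ± 0.26 above the testis and SC5D, a sterol desaturase, 1.19 ± 0.14 above backfat. Of 19 genes of endothelium and pericytes SLC2A1, the glucose carrier of the blood-brain barrier, and MFSD2A, its lipid carrier, were set apart high by 2.91 ± 0.18 and 1.78 ± 0.14. PECAM1, of all endothelium, was set apart low, at 5.35, 6.03 and 6.47, against a mean of 11.24 in backfat and 7.30 in the adenohypophysis. AQP1, a water channel of choroid plexus and of vessels, was also set apart low, by -2.11 ± 0.21 against the adenohypophysis. Of 9 meningeal and connective tissue genes PTGDS, the prostaglandin synthase of meninges and glia, was set apart high by 3.53 ± 0.35, and DCN, COL1A2 and ISLR low, COL1A2 at -0.64 and not called with the mean of its probesets. Of 20 muscle genes 1 was set apart high, a share near the 5.11% over all genes. It was PYGM, the glycogen phosphorylase of muscle, by 3.57 ± 0.55 over backfat, where 1 array was at 14.36. Of 47 oxidative phosphorylation genes 0 were set apart, 10 were higher than in the ovary and 2 than in the testis, and 0 were lower than in any group.

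**Figure D5:**
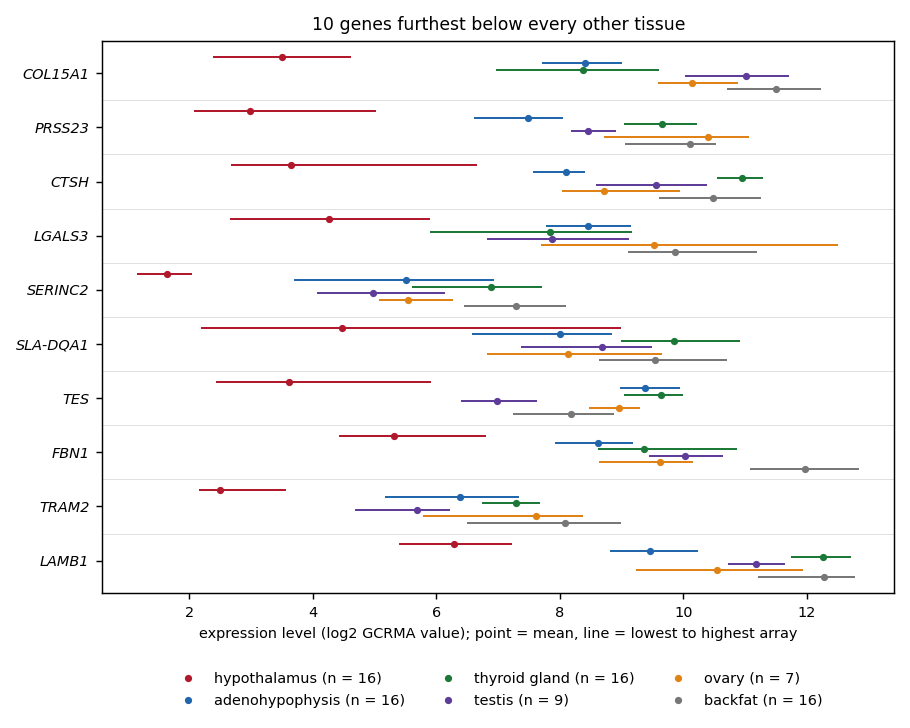
Mean log2 value (point) and lowest to highest array (line) of the 10 genes furthest below the lowest other tissue, in hypothalamus and the 5 other groups. Only SLA-DQA1 has a hypothalamus array that reaches the other tissues, at 8.97.

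Matrix, antigen presentation, ribosomal protein and cell cycle genes were among those set apart low. Of 32 collagens and matrix genes 0 were set apart high and 6 low, 5 of these without overlap, and 29 were lower than in backfat, with a median difference of -4.78. COL15A1, a collagen of basement membranes, was at 2.40, 3.52 and 4.60 in the hypothalamus, and no other array was below 6.97. Its gap to the lowest other group, the thyroid gland, was -4.86 ± 0.19. LAMB1, a laminin chain, was at 5.41, 6.15 and 7.21 and FBN1, fibrillin, at 4.43, 5.06 and 6.78, with gaps of -3.17 ± 0.17 and -3.29 ± 0.17. The lowest other arrays were at 8.82 and 7.94. DCN, decorin, was at 4.49, 6.86 and 8.31, against a mean of 9.58 in the adenohypophysis. Among the 10 largest gaps, PRSS23, a protease, had -4.50 ± 0.18, CTSH, a lysosomal protease, -4.46 ± 0.18 and LGALS3, a galectin of macrophages and epithelia, -3.57 ± 0.30. SERINC2, TES and TRAM2 followed with -3.56 ± 0.25, -3.32 ± 0.24 and -3.24 ± 0.21.

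Of 22 antigen presentation genes 5 were set apart low and 0 high. These were the class II genes SLA-DRA, SLA-DRB1, SLA-DQA1 and SLA-DQB1 and their chaperone CD74. SLA-DQA1 was at 2.20, 4.56 and 8.97 in the hypothalamus, against a lowest other mean of 8.0, in the adenohypophysis, with a gap of -3.53 ± 0.33. CD74 was at 6.11, 8.09 and 10.98, against a mean of 9.80 in the adenohypophysis (gap -1.49 ± 0.25). The groups overlapped in all 5 genes, and with the mean of its probesets SLA-DRB1 was at -0.82 and was not called. The highest mean of the list among the hypothalamus arrays, 8.79, was that of IBM23, and the next was 7.67, of IBM24. With pig IBM23 left out, the gaps of SLA-DQA1 and CD74 were -3.83 and -1.74.

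Ribosomal protein genes were lower in the hypothalamus by medians of under 1 log2 unit. Of 57 measured members 7 were set apart low and 0 high, and 25 lay in all hypothalamus arrays below all others. The mean over the list was 11.74, 12.15 and 12.28 in the hypothalamus, and no other array was below 12.51. The median difference was -0.83 against the adenohypophysis, -0.74 against the thyroid gland, -0.81 against the testis, -0.86 against the ovary and -0.66 against backfat. RPS6 was at 11.42, 11.96 and 12.17, against means between 13.30 and 13.47 elsewhere. RPS4X, RPL29 and RPL15 had gaps of -1.18, -1.23 and -1.07, each within 0.10 in SE. With quantile normalization RPL15 was at -0.99 and no longer met the size rule, and with the mean of its probesets RPS6 was at -0.92. Between 12 and 21 members were lower than in each other group, and RPL37 alone was higher than in the testis and backfat, by 1.03 and 1.82. Of 26 cell cycle genes 4 were set apart low, namely TOP2A, CCNB1, UBE2C (-0.61 and not called with the mean of its probesets) and CKS2, and 24 were lower than in the testis and 24 than in the ovary, with medians of -3.13 and -3.60. CKS2, a cyclin kinase subunit, was at 4.02, 5.29 and 6.96 with a gap of -2.53 ± 0.17 to its lowest other group. The immediate early gene IER2 was set apart low by -1.56 ± 0.27, alone among 19 of its list, which is near the 3.55% over all genes.

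The choice of probeset changed some calls. Of 195 list or named genes with several probesets 15 were set apart high by every probeset and 24 by some, and 4 were set apart low by every probeset and 7 by some. MBP, myelin basic protein, was at 8.53 in the hypothalamus and 8.45 in the adenohypophysis at the probeset of highest mean and was not called, but another probeset was at 14.40, against 6.38 in the adenohypophysis and 3.30 or less elsewhere. The second probeset of TF was at 4.73 in the hypothalamus and at 6.70 in the thyroid gland. Of 4 probesets of GFAP, 2 were high only in the hypothalamus and 2 were near 2 in all groups.

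Few genes differed between the sexes in the hypothalamus. In limma over 16 arrays with breed as covariate, 3 genes (0.0443%) differed between males and females. EIF1AY, on the Y chromosome, was at 9.46 ± 0.14 in males and 2.87 ± 0.09 in females (SD, n = 9 and 7; limma adjusted p = 3.7e-15). KDM6A, a histone demethylase that escapes X inactivation in other mammals, was at 6.32 in males and 7.33 in females (difference -1.07 ± 0.11) and TXLNG at 5.74 and 6.41 (-0.67 ± 0.08). The list members with the smallest p were ATP5I, SLA-DRB1, FBN1, ADD3 and AGPAT2, all with an adjusted p of 0.998.

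Between breeds 13 genes (0.192%) differed, in limma with sex as covariate and a moderated F over 4 breeds. Mean age also differed by breed, from 80 days in Youli to 89 in Iberian pigs, and so did mean live weight. Breed, age and weight cannot be told apart here. Only NDUFV1, a subunit of complex I, belonged to a list, with 9.19 ± 0.10 in Large White, 8.88 ± 0.05 in Duroc, 9.13 ± 0.06 in Youli and 8.82 ± 0.07 in Iberian pigs (SD, n = 4 each; limma adjusted p = 0.028). UQCR10, a subunit of complex III, was at 11.27 in Large White and between 10.83 and 10.97 in the other breeds (limma adjusted p = 0.020), and PRKAB2, a subunit of the kinase AMPK, at 5.17 in Large White and between 3.71 and 4.03 in the others. The next list members were COX7C, NDUFB2, NDUFS3 and ATP5I, with adjusted p of 0.064, 0.082, 0.083 and 0.11, so that these 4 genes were not called. Of 47 oxidative phosphorylation genes 1 was called, NDUFV1. The smallest p were those of TMEM176A and ANXA2 (limma adjusted p = 0.0091 and 0.011). TMEM176A ran from 4.15 in Youli to 6.92 in Iberian pigs. ANXA2 was at 6.64 in Youli and between 8.56 and 8.94 in the other breeds. Also called were ABHD14B, EIPR1, LCP2, ZNF12, TMEM176B, NPM2, DPCD and TIMM22. The count rested on few pigs: it was 2 without DUM15, 3 without LWF05, 4 without YLM19, 6 without YLF21, 7 without YLM20, 8 without DUF14 and 19 without LWM04, and 23 without the 4 arrays that stood apart.

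Whether the hypothalamus differed from the other tissues in a way that depended on sex or breed was tested on its difference from the mean of adenohypophysis, thyroid gland and backfat in each pig. By sex 3 genes (0.0443%) were called. HYAL3, a hyaluronidase, had a difference of -0.09 in males and -1.64 in females, and FSHB, the follicle-stimulating hormone subunit, of -2.67 and -3.92. The third, LOC396706, had -1.79 in males and -0.02 in females. This measure also moves with the subtracted tissues, and none of these 3 genes was called by sex in the hypothalamus itself. By breed 4 genes (0.0591%) were called, NPM2, MARK2, LOC100738720 and GNLY. Of these only NPM2 was also called by breed in the hypothalamus itself. MARK2, a microtubule kinase, had differences of 0.03 in Large White, -0.71 in Duroc, -0.34 in Youli and -0.06 in Iberian pigs (limma adjusted p = 0.021). The count by breed was 0 without LWF05, 1 without DUF14, 2 without any of DUF13, DUM15, IBM23 or LWM04, 7 without YLM18 and 8 without LWF06, and that by sex was 1 without YLF21.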

How the data were processed

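RNA of 16 hypothalami and of the other tissues of the same pigs was hybridized to Affymetrix Porcine GeneChips (GCOS, per the submitters' processing notes). The deposited log2 values came from GCRMA, which the authors ran once over the whole set of arrays, and no further scaling was applied. Normalizing tissues together fixes the overall distribution, so differences are relative to it.

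Symbols came from the platform annotation: 10069 probesets have 1 symbol, 198 several and 13732 none. The probeset of highest mean stood for a gene. Groups were taken from the labels. Animals came from titles, and in 11 of 16 thyroid arrays the title conflicted with the breed and sex fields. All 80 arrays entered 1 limma fit (limma 3.58.1, R 4.3.3; 59 residual df) of 6 groups with the animal as block, two-sided. Same-numbered arrays came from 1 animal. Over 2000 probesets, deviations of the hypothalamus correlated with those of the same animal by 0.445 on average for the adenohypophysis, 0.401 for thyroid, 0.303 for backfat, 0.167 for testis and 0.128 for ovary, and by about -0.02 to -0.03 between animals. Each pig gave 1 array per tissue. With the animal as block, p-values of the tissue tests measure how far differences between tissues varied among pigs. The 6 groups shared 1 residual variance per probeset, so an SE can be too small for genes that varied mostly in 1 group. In the tests of sex and breed, p-values measure the spread between pigs. The fits were tested on simulated data with 1 SD per probeset in all groups, so a spread that differs between groups was not tested.

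The hypothalamus, its markers and the gene lists were chosen with earlier results of these data known. Named were the 4 markers, the 20 genes furthest above and the 10 furthest below the next group, up to 4 called members of each list with the highest hypothalamus mean, every measured neuropeptide, the 10 largest differences each way against the adenohypophysis and the 5 list members of smallest p for sex and breed. Genes outside this rule, such as those of single arrays and list members that were not called, were chosen after their values were seen. Alternatives were another normalization, centring, no block, a filter on dim probesets, the mean of probesets, other limits and leaving out each animal. Sequences were not used here.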

Additional observations from a re-analysis of the deposited data

Results flagged for a closer look

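In 59 groups of 4 to 10 arrays the highest or lowest array was compared with its neighbours, and in 5 the gap to the nearest array was a large share of the whole range. Chance alone gives about 1 in 20 such groups. SCRG1 was at 10.91 in 1 ovary and at most at 5.04 in the other 6, a share of 0.703. In the testis the highest array of MAG was at 2.08 and the next at 1.81 (0.805), both at the floor. The lowest testis array of TRAM2 was at 4.70 and the next at 5.54 (0.554). In the hypothalamus of Iberian pigs the highest TMEM176A was at 7.16 and the next at 6.85 (0.950). In that of Duroc pigs the highest ABHD14B was at 6.48 and the next at 6.29 (0.830).

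The difference of the hypothalamus from the mean of adenohypophysis, thyroid gland and backfat differed between the sexes in 3 genes, by limma with Benjamini-Hochberg adjustment. The adjusted p was 0.00616 for HYAL3 (males minus females 1.48 ± 0.16), 0.00823 for LOC396706 (-1.75 ± 0.21) and 0.0330 for FSHB (1.27 ± 0.18). It differed between breeds in NPM2 (0.0207), MARK2 (0.0207), LOC100738720 (0.0281) and GNLY (0.0430). GNLY, a protein of cytotoxic lymphocytes, had differences of -2.46 in Large White, -1.38 in Duroc, -3.22 in Youli and -0.82 in Iberian pigs. Such differences also move with the subtracted tissues. Of the genes named for sex or breed here, only NPM2 was called in the hypothalamus itself.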

How the results depend on the processing

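Of 2320 repeats for the named genes set apart, 2260 kept their side of the rule, 60 lost it and 0 changed sign. Direction was not compared for the counts or for the tests of sex and breed. Single probesets were not among the repeats. Without the animal as block, 345 genes were set apart high and 241 low, of which 344 and 239 were shared with the paired fit, and the pairing changed the call of no named gene. With a minimum difference of 2 in place of 1, 150 genes were set apart high and 50 low. The median of all genes against backfat was -0.09 and became -0.23 when arrays were centred on their medians. Genes by breed numbered 13, but 8 without dim probesets and 6 with trend and robust estimation. With the adenohypophysis alone as the other side, 7 genes varied by sex and 8 by breed. With 4 hypothalamus arrays left out (LWF06, LWM02, YLM18 and YLM19), 23 genes differed by breed and 7 varied by breed.

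Leaving out each pig gave 827 to 847 genes higher and 868 to 906 lower than the adenohypophysis, 952 to 977 and 1265 to 1296 than the thyroid gland, 949 to 970 and 1362 to 1428 than the testis, 956 to 991 and 1365 to 1409 than the ovary, and 1021 to 1036 and 1294 to 1323 than backfat. It gave 339 to 348 set apart high, 236 to 255 set apart low, 68 to 74 by at least 3, 3 by sex in each case, 2 to 19 by breed, and 1 to 3 by sex and 0 to 8 by breed in the difference from other tissues. The mean of all probesets ended the call of SLC1A1, SPARCL1, ITGAM, MSMO1, NPY, COL1A2, SLA-DRB1, UBE2C and RPS6. Without single pigs the call was lost for CARTPT, TTR, IRF8 and MSMO1. Values near the floor have no order.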
